A study of Homo sapiens with 18 samples.

Results

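The glutathione S-transferases considered here are 10 genes named by symbol, GSTA1, GSTM1, GSTM2, GSTM3, GSTM4, GSTP1, GSTO1, MGST1, MGST2 and MGST3. They were chosen as a gene family, with earlier results of these data known, by joining the Ensembl identifiers of the expression table to gene symbols. Of the 10, 9 had a row among the 16575 genes of the table, and all 9 passed the filter of 5 CPM or more in any library, which 13022 genes passed (CPM is a gene's tag count scaled to the size of its library). GSTM2 was not analysed here.

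The 18 libraries were made by CAGE-seq, a method that reads RNA from its capped 5′ end, and came from the human bladder carcinoma lines CAL-29, HT-1376 and RT-112. Each of these 3 lines was carried through 2 stable lentiviral transductions to give 6 variants with 1 library each. The study asked how WWOX overexpression changes genes that depend on the transcription factors AP-2α and AP-2γ, and treated the lines as biological replicates. In the name of a variant the first letter is the first transduction (K, blank control, or W, WWOX) and the second letter is the second transduction (K, blank control, A, AP-2α, or C, AP-2γ). KK thus carried both blank vectors, WK WWOX with a blank, KA and KC an AP-2 factor on the blank background, and WA and WC an AP-2 factor on the WWOX background. All variants, controls included, were selected with puromycin and then G418. All W libraries of a line came from 1 first transduction and all K libraries from another, so a p-value between W and K measures the spread over second transductions. RT-112 was grown in RPMI-1640 and the other lines in DMEM, so medium and line cannot be told apart.

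Glutathione S-transferases join the tripeptide glutathione to electrophilic compounds, including drugs and lipid peroxidation products, which makes the compounds soluble and ready for export. The cytosolic enzymes fall into classes named alpha, mu, pi and omega (GSTA, GSTM, GSTP and GSTO), and the MGST genes encode membrane proteins of a separate family. In urothelium the family is best known for clearing aromatic carcinogens.

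Each library held between 13357102 and 17958572 reads on genes. A count of 0 allows up to 3 reads, or 0.158 to 0.213 CPM, by counting error alone. A CAGE read marks 1 RNA molecule's start, so levels of different genes were compared in CPM without a length term. The library labelled CAL-29 KC stood apart, with a median correlation of 0.940 to the HT-1376 libraries and 0.741 to the other CAL-29 libraries, and it is shown apart and left out of the fits, which used 17 libraries. All 3 lines had reads on the epithelial genes EPCAM, CDH1, KRT7, KRT8, KRT18 and GATA3. So they had on KRT5, KRT19, TP63, PPARG and UPK1B of the same list. The rest of the list was near 0 in some lines. Median CPM in HT-1376 was 0 for KRT20, UPK1A and UPK3A and 0.38 for UPK2. It was 0 for UPK3A in RT-112 and 0.06 for KRT14 in CAL-29. Of genes of other cell types, COL1A1 had medians of 5.53 to 12.2 CPM. COL1A2 had 11.6 in HT-1376 and 0 in the other lines. WWOX itself was not higher in the W libraries of 2 of the 3 lines, at 18.5 to 22.3 CPM in W against 23.5 to 26.0 in K of RT-112 and 18.6 to 23.1 against 16.95 to 24.7 in HT-1376. In CAL-29 it stood at 155 CPM in WK and 62.4 and 69.3 in WC and WA, against 63.7 and 51.3 in KK and KA. A transcript that starts in a vector need not be counted on the gene, so these values check the labels only in part, and directions below follow the labels. TFAP2C, the gene of AP-2γ, was 1.35 to 4.55 times its matching control in 5 of 5 pairs, and TFAP2A, the gene of AP-2α, was 0.909 to 2.6 times in 6 pairs, higher in 5 and lower in HT-1376 WA. In HT-1376, TFAP2C was also lower in WK than in KK, at 69.0 against 158 CPM. HT-1376 WC, at 163 CPM, was thus 2.36 times WK but 1.03 times KK. The library labelled RT-112 WA went against its label, since TFAP2C was 3.20 times RT-112 WK there (180 against 56.2 CPM, and 143 in RT-112 WC) and TFAP2A 1.25 times. HT-1376 WA also had more TFAP2C than HT-1376 WK (1.42 times, 98.0 against 69.0 CPM), with TFAP2A at 0.909 times. Its TFAP2C was 0.620 times that of HT-1376 KK.

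The promoters of 3 members are shown because the results turn on these genes: GSTP1 had the highest mean level, GSTM1 was near 0 outside CAL-29, and GSTM3 had the lowest adjusted p between W and K libraries within a line. Each runs from 250 bases before the RefSeq start to 50 bases from it (GRCh38.p14). RefSeq sequences matched 9 of the 10 members. The exception was MGST2, whose promoter was not searched for either motif. GSTP1 lies at chr11:67583562-67583861 (+ strand), GSTM1 at chr1:109687567-109687866 (+ strand) and GSTM3 at chr1:109740989-109741288 (- strand). Capitals mark matches to the AP-2 motif GCCNNNGGC or to the core of the antioxidant response element, TGACNNNGC on either strand, bound by NRF2 with small MAF proteins.
GSTP1: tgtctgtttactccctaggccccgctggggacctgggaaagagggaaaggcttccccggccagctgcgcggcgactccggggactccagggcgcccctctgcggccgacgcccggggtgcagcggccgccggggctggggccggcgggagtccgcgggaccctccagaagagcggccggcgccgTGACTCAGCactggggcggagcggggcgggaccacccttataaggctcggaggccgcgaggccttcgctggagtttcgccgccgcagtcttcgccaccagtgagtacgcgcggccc
GSTM1: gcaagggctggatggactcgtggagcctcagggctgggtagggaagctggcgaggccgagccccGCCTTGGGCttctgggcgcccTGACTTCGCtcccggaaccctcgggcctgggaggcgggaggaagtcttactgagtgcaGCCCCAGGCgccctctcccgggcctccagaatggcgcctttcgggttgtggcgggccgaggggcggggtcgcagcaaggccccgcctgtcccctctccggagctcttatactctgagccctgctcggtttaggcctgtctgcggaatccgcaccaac
GSTM3: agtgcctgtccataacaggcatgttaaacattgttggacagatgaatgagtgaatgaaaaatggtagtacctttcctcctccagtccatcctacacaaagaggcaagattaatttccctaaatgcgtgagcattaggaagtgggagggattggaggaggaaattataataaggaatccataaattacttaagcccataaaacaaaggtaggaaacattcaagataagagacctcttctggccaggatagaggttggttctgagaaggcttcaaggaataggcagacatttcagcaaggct
The GSTP1 window was rich in G and C (74%) with 36 CG pairs and held 1 match to the antioxidant response element core and none to the AP-2 motif. The GSTM1 window, with 69% G and C, held 2 AP-2 matches and 1 antioxidant response element match. The GSTM3 window held neither motif, 1 CG pair and 41.3% G and C, against a median of 58.7% over 35116 RefSeq promoter windows of the same length. Of those windows, 23.2% held the AP-2 motif and 13.3% the antioxidant response element core. The other members with an AP-2 match were GSTM2 (1), GSTO1 (2) and MGST3 (1). A match is a description of letters and not a binding site, and the table gives 1 value per gene, so which start the reads came from was not analysed.

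GSTP1, the pi class enzyme and the member of highest mean level in each line over its W and K libraries together, differed between the lines by several fold. CAL-29 had 8385 ± 2896 CPM (SD, n = 5), RT-112 3116 ± 264 (n = 6) and HT-1376 1881 ± 665 (n = 6). In bulk RNA fewer cells with a transcript and less of it per cell cannot be told apart. GSTP1 made up 85.8% ± 5.40 of the summed CPM of the 9 members in CAL-29, 71.9% ± 2.88 in RT-112 and 49.6% ± 8.65 in HT-1376. The sum without GSTP1 was 1254 ± 197, 1211 ± 96.9 and 1812 ± 154 CPM in the same order, so the highest line was HT-1376 there and CAL-29 in GSTP1.

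**Figure D1:**
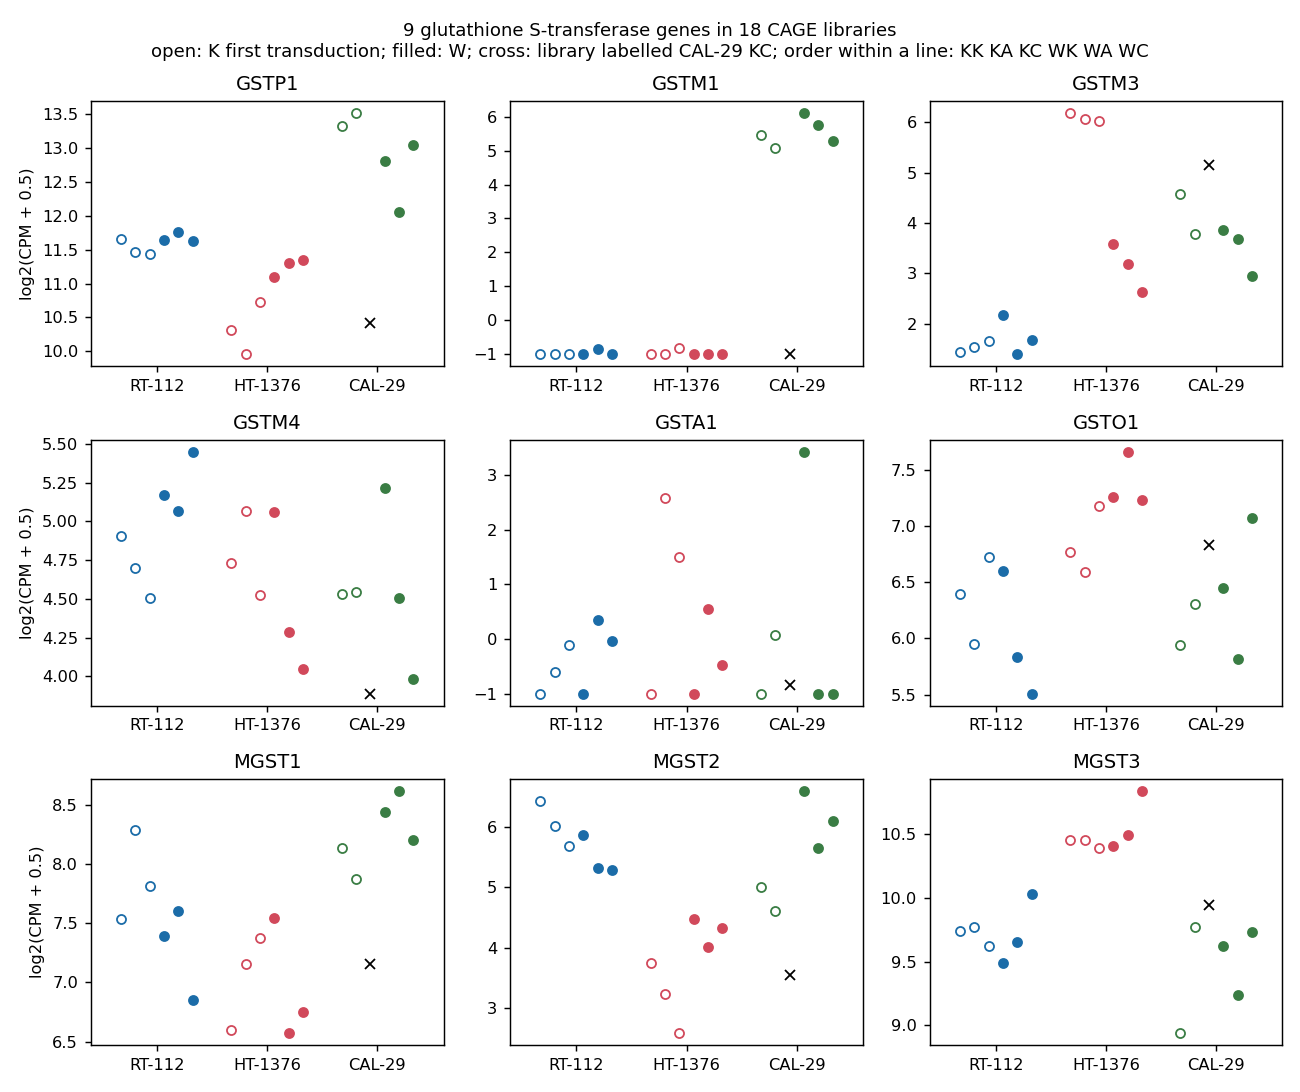
Levels of the 9 members as log2(CPM + 0.5) in each library, with the 3 cell lines on the horizontal axis, open points for K and filled points for W libraries, and a cross for the library labelled CAL-29 KC. GSTM1 lies above 5 in the 5 CAL-29 libraries and near -1 (0 CPM) elsewhere, the cross included, and GSTM3 in HT-1376 splits into 3 high K and 3 low W libraries.

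Levels were compared between lines with limma on log2(CPM + 0.5), with terms for WWOX and AP-2 and Benjamini-Hochberg adjustment over all 13022 genes. A call means an adjusted p under 0.05, and log2FC is on the log2(CPM + 0.5) scale. Between HT-1376 and CAL-29, 6 of 9 members were called (2 higher and 4 lower in HT-1376), against 60.8% of all genes. Between RT-112 and CAL-29, 4 of 9 were called, all lower in RT-112, against 72.4%. Between RT-112 and HT-1376, 6 of 9 were called, 3 in each direction, against 62.2%. Since most genes of the table were called between any of the lines, these counts say nothing particular about the family.

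Library scaling bears on the direction between lines. With TMM scaling the median log2FC over all genes moved from -0.82 to -0.12 for RT-112 minus CAL-29, from -0.44 to -0.10 for HT-1376 minus CAL-29 and from -0.43 to -0.05 for RT-112 minus HT-1376. Calls over all genes went from 2074 higher and 7359 lower to 4203 and 4815 in the first, from 2383 and 5536 to 3460 and 3935 in the second, and from 2552 and 5548 to 3839 and 3892 in the third. Member calls under TMM were 3 higher and 2 lower, 3 and 4, and 4 and 1 in that order.

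GSTP1 was lower in HT-1376 than in CAL-29 by a log2FC of -2.16 (SE 0.29, adjusted p = 1.43e-05), a call that held in all 28 settings tried. It was also lower in RT-112 than in CAL-29 (log2FC -1.35, adjusted p = 6.33e-04), where TMM gave -0.58 (adjusted p = 0.155). That call was also lost with limma-voom, edgeR and DESeq2 (adjusted p 0.0559 to 0.112). GSTP1 was higher in RT-112 than in HT-1376 (log2FC 0.81, adjusted p = 0.0174). The last call was lost without HT-1376 KA (log2FC 0.64, adjusted p = 0.0558) and with the library labelled CAL-29 KC in the fit (log2FC 0.81, adjusted p = 0.0907).

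GSTM1, a mu class enzyme, had 43.6 CPM in KK, 33.0 in KA, 68.5 in WK, 53.9 in WA and 38.2 in WC of CAL-29. In RT-112 it was at 0 in 5 libraries and at 0.06 CPM, a single read, in WA, and in HT-1376 at 0 in 5 libraries and at 0.07 CPM, a single read, in KC. The groups did not overlap. Pooled over libraries, CAL-29 had 4281 reads of 84791062, RT-112 1 of 102567839 and HT-1376 1 of 92515110. The ratio of CAL-29 to RT-112 was 5179 (95% exact interval 929 to 204588) and to HT-1376 4671 (838 to 184536), and both intervals cover counting error only. The fitted log2FC were -6.49 and -6.48 (adjusted p = 1.64e-12 and 9.97e-13), sizes that depend on the pseudocount. The first 75 bases of GSTM1 transcripts differed from the closest GSTM5 sequence by as few as 4 bases and from GSTM2 and GSTM4 by 5, so how reads were split within this gene cluster is uncertain for GSTM1.

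GSTM3, a mu class enzyme encoded on the opposite strand beside them, was the lowest detected mu member of RT-112, at 2.1 to 4.03 CPM (median 2.54). CAL-29 ranged from 7.25 to 23.2 CPM (median 13.3) and HT-1376 from 5.70 to 72.3 (median 38.1). RT-112 did not overlap with either line. Its log2FC was -2.96 for RT-112 minus HT-1376 (SE 0.45, adjusted p = 4.13e-05) and -2.20 for RT-112 minus CAL-29 (SE 0.48, adjusted p = 7.66e-04), and both calls held in all 28 settings. For HT-1376 minus CAL-29, GSTM3 was not called (log2FC 0.76, adjusted p = 0.180) but was called higher in HT-1376 under TMM (log2FC 1.11, adjusted p = 0.0462). Its first 75 bases differed from any other family member by at least 36 bases. GSTM4, the other mu gene, was at 23.9 ± 7.80, 24.9 ± 7.06 and 31.5 ± 7.49 CPM in CAL-29, HT-1376 and RT-112 and was called in none of the 3 comparisons. With TMM it was called higher in RT-112 than in HT-1376 (log2FC 0.75, adjusted p = 0.00557) and in CAL-29 (log2FC 1.23, adjusted p = 1.52e-04).

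GSTA1, the alpha class enzyme best known from liver, was at 0 in 7 of the 18 libraries and reached 5 CPM in 2, with 5.45 CPM in HT-1376 KA and 10.2 in CAL-29 WK. It passed the filter through these 2 libraries and was not called in any comparison. Its first 75 bases differed from GSTA2 by 6 bases, so its few reads are uncertain. GSTO1, an omega class enzyme that also reduces dehydroascorbate, was highest in HT-1376 at 142 ± 37.3 CPM, with 83.3 ± 31.0 in CAL-29 and 74.7 ± 23.9 in RT-112. The log2FC was 0.78 for HT-1376 minus CAL-29 (adjusted p = 0.0171) and -0.95 for RT-112 minus HT-1376 (adjusted p = 0.00345). The latter was -0.54 under TMM (adjusted p = 0.108), and its call was also lost with limma-voom, edgeR and DESeq2 (adjusted p 0.0857 to 0.115). The first was 0.66 without CAL-29 KK (adjusted p = 0.0583) and 0.59 without HT-1376 WA (adjusted p = 0.0613).

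**Figure D2:**
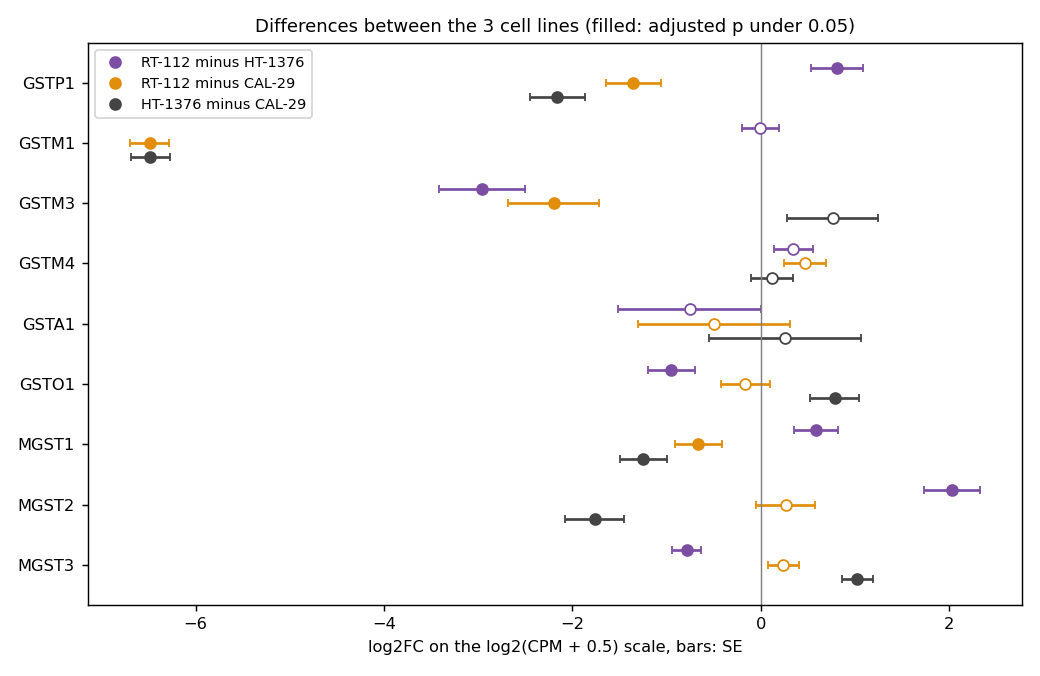
Fitted differences between cell lines for the 9 members, with log2FC and its SE on the horizontal axis and a filled point where the adjusted p was under 0.05. GSTM1 stands near -6.5 in both comparisons with CAL-29, and the remaining members lie between -2.96 and 2.03.

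Of the membrane members, MGST3, which has glutathione peroxidase activity, was next to GSTP1 by mean level in each line. It ranged from 1339 to 1824 CPM (median 1399) in HT-1376, above all RT-112 libraries (718 to 1044, median 828) and all CAL-29 libraries (491 to 873, median 788). The log2FC was 1.03 for HT-1376 minus CAL-29 (adjusted p = 6.80e-05), and -0.79 for RT-112 minus HT-1376 (adjusted p = 3.54e-04), which was -0.38 under TMM (adjusted p = 0.149). The latter call was also lost with limma-voom, edgeR and DESeq2 (adjusted p 0.105 to 0.135). For RT-112 minus CAL-29, MGST3 was not called (log2FC 0.24, adjusted p = 0.194) but was called higher in RT-112 under TMM (log2FC 1.01, adjusted p = 0.00111). In HT-1376 the levels of GSTP1 and MGST3 overlapped, and in its K libraries the order was the reverse by mean (1379 CPM for MGST3 and 1324 for GSTP1) and in KK and KA singly.

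MGST2, which can also make leukotriene C4, was low in HT-1376 at 5.53 to 21.7 CPM (median 14.3), below all CAL-29 libraries (23.8 to 95.8, median 49.5) and all RT-112 libraries (38.4 to 85.5, median 54.1). The log2FC was 2.03 for RT-112 minus HT-1376 (SE 0.30, adjusted p = 2.56e-05) and -1.76 for HT-1376 minus CAL-29 (SE 0.32, adjusted p = 2.14e-04), and both calls held in all 28 settings. For RT-112 minus CAL-29, MGST2 was not called (log2FC 0.26, adjusted p = 0.465) but was called higher in RT-112 under TMM (log2FC 1.03, adjusted p = 0.0118). MGST1, found in the outer mitochondrial membrane and the endoplasmic reticulum, was highest in CAL-29 at 309 ± 61.1 CPM, followed by RT-112 at 199.7 ± 65.8 and HT-1376 at 132 ± 38.4. The call between HT-1376 and CAL-29 (log2FC -1.25, adjusted p = 5.43e-04) held in all 28 settings. The difference between RT-112 and CAL-29 (log2FC -0.67, adjusted p = 0.0248) turned to 0.10 under TMM (adjusted p = 0.733) and was lost without CAL-29 WK, WA or WC or RT-112 WK or WC (adjusted p 0.0550 to 0.0662). That between RT-112 and HT-1376 (log2FC 0.58, adjusted p = 0.0409) was lost without RT-112 KK, KA, KC, WK or WA or HT-1376 KK, KA, WA or WC (adjusted p 0.0518 to 0.118). With the library labelled CAL-29 KC in the fit, the adjusted p of these MGST1 differences was 0.109 and 0.0667.

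Within the lines, the order of the levels was GSTP1, MGST3 and MGST1 in RT-112 and CAL-29, without overlap between neighbours. The next neighbours, GSTO1 with MGST2 and, in RT-112, MGST2 with GSTM4, overlapped. In HT-1376, GSTO1 and MGST1 followed GSTP1 and MGST3 and overlapped each other. GSTM3 came after them by its mean over W and K libraries together, and overlapped GSTM4. In the W libraries alone its mean (8.60 CPM) was below those of GSTM4 (22.6) and MGST2 (19.0), against 67.8 CPM in K.

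In HT-1376, the libraries labelled W had much less GSTM3, 2.09 times as much MGST2 and 1.84 times as much GSTP1 than the libraries labelled K. GSTM3 had 72.3 CPM in KK, 66.3 in KA and 64.7 in KC, and 11.5 in WK, 8.56 in WA and 5.70 in WC. All 3 W libraries lay below all 3 K libraries. The mean of K was 7.88 times that of W, and the log2FC of W minus K was -2.96 (SE 0.28, adjusted p = 9.33e-05), a call that held in all 28 settings with log2FC of -3.08 to -2.75. MGST2 had 12.9, 8.91 and 5.53 CPM in KK, KA and KC, and 21.7, 15.7 and 19.7 in WK, WA and WC. The W libraries were all higher, with a log2FC of 1.09 (SE 0.21, adjusted p = 0.00816), a call kept in 27 of 28 settings and lost with the library labelled CAL-29 KC. GSTP1 had 1276, 992 and 1704 CPM in KK, KA and KC, and 2191, 2526 and 2595 in WK, WA and WC. The groups did not overlap, and the log2FC was 0.91 (SE 0.26, adjusted p = 0.0423), but the call was lost without HT-1376 KK, KA, WK, WA or WC or any 1 of the 6 RT-112 libraries (adjusted p 0.0537 to 0.184) and under TMM (log2FC 1.06, adjusted p = 0.0924). These 3 of 9 members compare with 8.59% of all genes called in the same comparison (548 higher and 570 lower, or 742 and 661 under TMM). The median log2FC over all genes was -0.13, and 0.00 under TMM.

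In CAL-29, MGST2 was the 1 member called, against 0.591% of all genes. It had 31.7 CPM in KK and 23.8 in KA, and 95.8 in WK, 49.5 in WA and 67.7 in WC. The W libraries lay above the K libraries, by 2.56 times in the mean and a log2FC of 1.42 (SE 0.24, adjusted p = 0.0167). The adjusted p was 0.0511 without CAL-29 KA, 0.118 without CAL-29 KK, 0.0946 without CAL-29 WK and 0.0536 under TMM. GSTP1 had 10278 CPM in KK and 11763 in KA, and 7161 in WK, 4257 in WA and 8465 in WC. Here the W libraries were lower without overlap, with a log2FC of -0.87 that was not called (SE 0.29, adjusted p = 0.221). GSTM3 had 23.2 and 13.3 CPM in KK and KA, and 13.9, 12.3 and 7.25 in WK, WA and WC, groups that overlapped (log2FC -0.57, adjusted p = 0.508).

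In RT-112, 0 of 9 members and 0% of all genes were called by limma, with 1 member and 979 genes at an unadjusted p under 0.05. Over all genes DESeq2 called 25 and edgeR 0. MGST2 had 85.5, 63.9 and 50.7 CPM in KK, KA and KC, and 57.6, 39.3 and 38.4 in WK, WA and WC, a log2FC of -0.55 (SE 0.21, adjusted p = 0.544) of opposite sign to the other lines. GSTM3 was at 2.22 to 2.67 CPM in K and 2.1 to 4.03 in W (log2FC 0.20, adjusted p = 1). GSTP1 was at 2783 to 3244 CPM in K and 3154 to 3484 in W (log2FC 0.15, adjusted p = 1).

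The difference between lines in the W minus K effect was tested itself, with a moderated F over the 3 lines. It was called for GSTM3 (adjusted p = 0.00454) and MGST2 (adjusted p = 0.0117), 2 of 9 members against 3.02% of all genes, and both calls held without each library in turn (adjusted p up to 0.0179 and 0.0426). GSTP1, with opposite signs in HT-1376 and CAL-29, gave an adjusted p of 0.0524, which was under the threshold in 8 of 28 settings (0.0106 to 0.803), 4 of them among the 17 fits without 1 library (0.0274 to 0.141). With the library labelled CAL-29 KC in the fit, 0 members and 0 genes were called, and GSTM3 and MGST2 both had an adjusted p of 0.0527. Of the other 6 members, GSTO1 was 1.44 times as high in W as in K of HT-1376, MGST1 1.34 times in CAL-29 and GSTM4 1.45 times in RT-112, each without overlap and without a call. The share of all genes without overlap between W and K libraries of a line was not counted. The lack of overlap thus says nothing particular about the members.

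**Figure D3:**
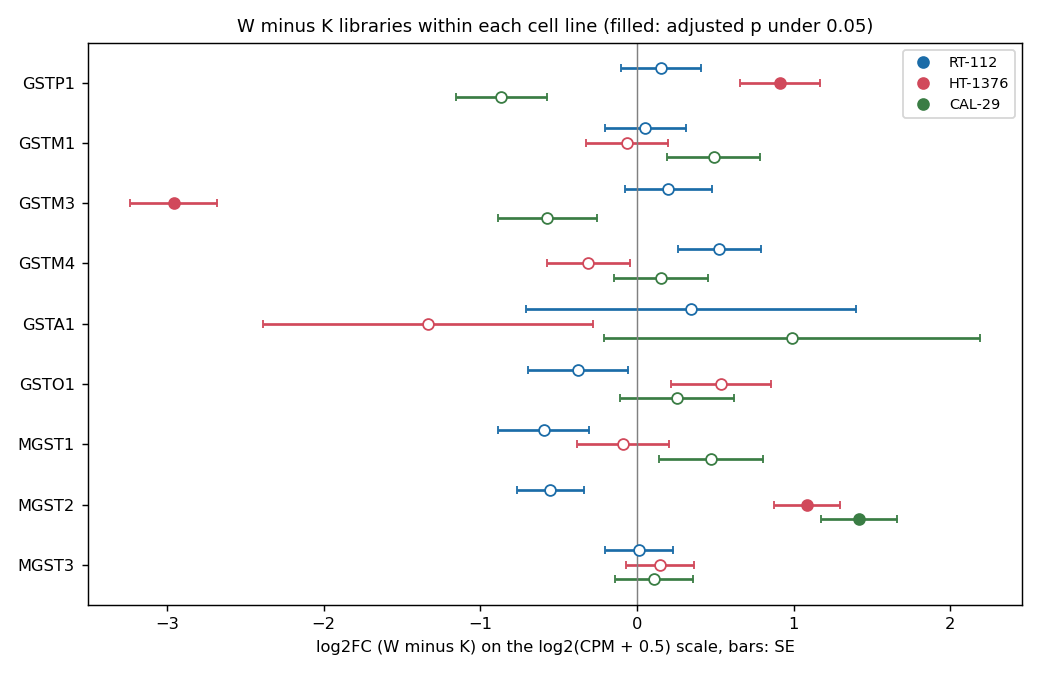
Difference between W and K libraries within each line for the 9 members, as log2FC with its SE, filled where the adjusted p was under 0.05. The filled points are GSTM3 (-2.96), MGST2 (1.09) and GSTP1 (0.91) in HT-1376 and MGST2 (1.42) in CAL-29.

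**Figure D4:**
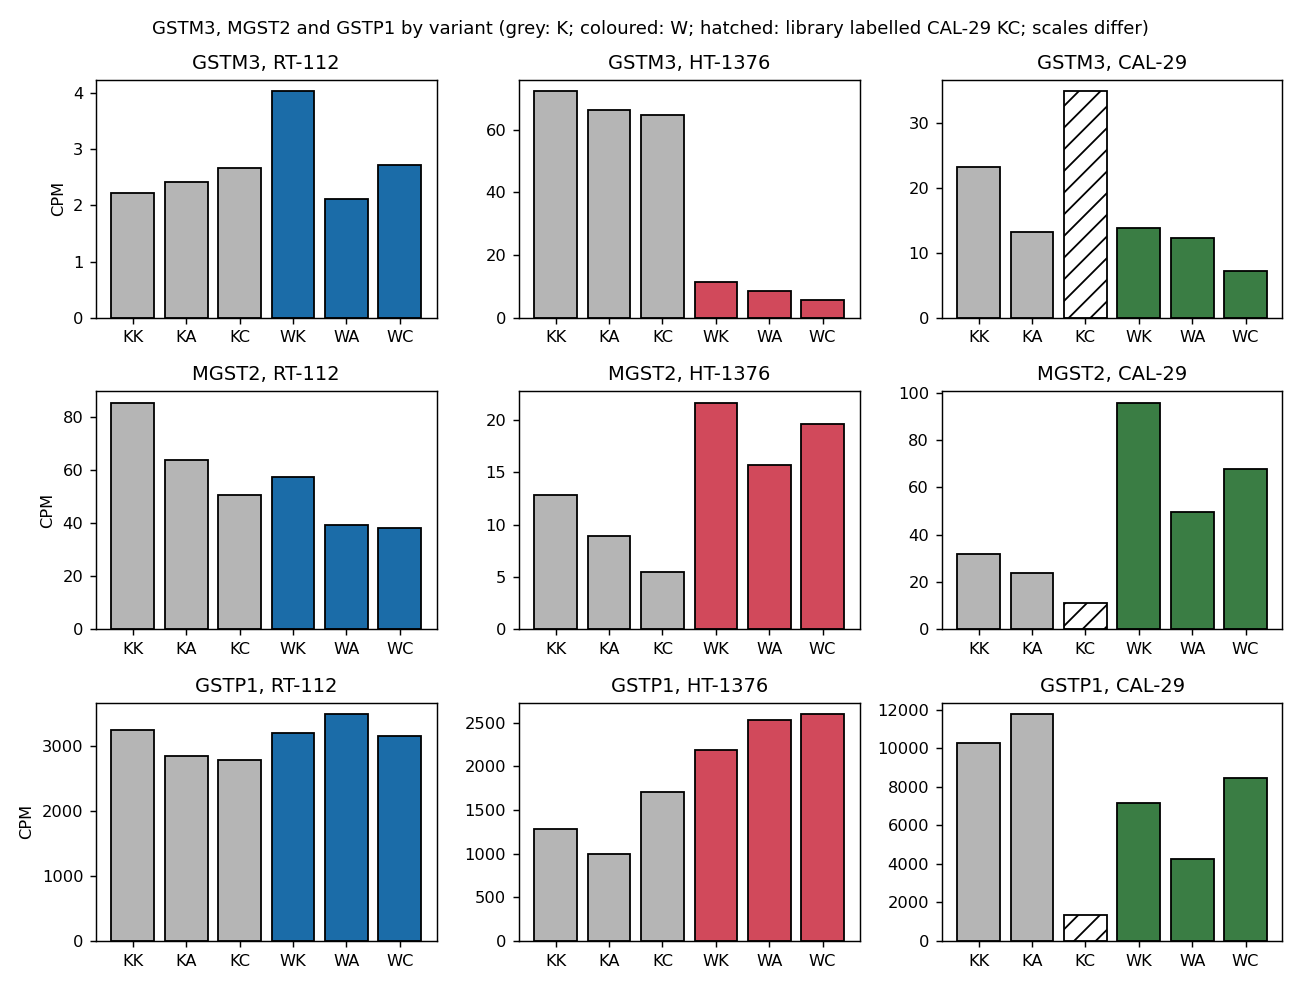
CPM of GSTM3, MGST2 and GSTP1 in each library, with the 6 variants on the horizontal axis, grey bars for K and coloured bars for W, a hatched bar for the library labelled CAL-29 KC, and axes from 0 that differ between panels. The GSTM3 bars of HT-1376 fall from 64.7 to 72.3 in K to 5.70 to 11.5 in W.

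Over all 3 lines together, no member was called for W minus K (0 of 9, against 0% of all genes). At an unadjusted p under 0.05 there were 2 members, GSTM3 (log2FC -1.16, adjusted p = 0.308) and MGST2 (log2FC 0.59, adjusted p = 0.380), and 1598 genes. Over all genes DESeq2 called 225, voom 70 and edgeR 16, and no member was among them.

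For AP-2α against its blank, over all lines and both first transductions, 0 of 9 members and 0% of genes were called by limma, with 0 members and 199 genes at an unadjusted p under 0.05, and edgeR and DESeq2 each called 1 gene and no member. MGST2 was lower with AP-2α in 6 of 6 pairs of the same line and first transduction, at 0.517 to 0.751 times its control, with a log2FC of -0.55 (SE 0.30, adjusted p = 1.00). It was also lower with AP-2γ in 5 of 5 pairs, at 0.429 to 0.907 times, with a log2FC of -0.51 (SE 0.32, adjusted p = 0.999). The factors share their control libraries, so the 2 counts are not independent. How many of all genes were lower in every pair was not counted. In 1 of the AP-2α pairs, RT-112 WA to WK, MGST2 was 0.683 times its control, with TFAP2C at 3.20 and TFAP2A at 1.25 times. In another, HT-1376 WA to WK, MGST2 was 0.725 times, with TFAP2A at 0.909 and TFAP2C at 1.42 times. The other 4 AP-2α pairs spanned 0.517 to 0.751. Without RT-112 WA, and likewise without HT-1376 WA, 0 members and 0 genes were called for AP-2α. For AP-2γ, 0 of 9 members and 0% of genes were called, with 1 member and 343 genes at an unadjusted p under 0.05, and edgeR called 2 genes and DESeq2 12, with no member among them. The member was GSTM4, at 0.417 to 1.22 times its control and lower in 4 of 5 pairs (log2FC -0.49, SE 0.22, adjusted p = 0.999). GSTM1, whose window shown above held AP-2 matches, was in CAL-29 at 0.756 (KA to KK) and 0.787 (WA to WK) times its control with AP-2α and 0.557 (WC to WK) times with AP-2γ, with no call. Of the other measured members with AP-2 matches, MGST3 was higher in 5 of 6 AP-2α and 3 of 5 AP-2γ pairs. GSTO1 was higher in 2 of 6 and 3 of 5. Whether a match goes with a direction was not tested.

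**Figure D5:**
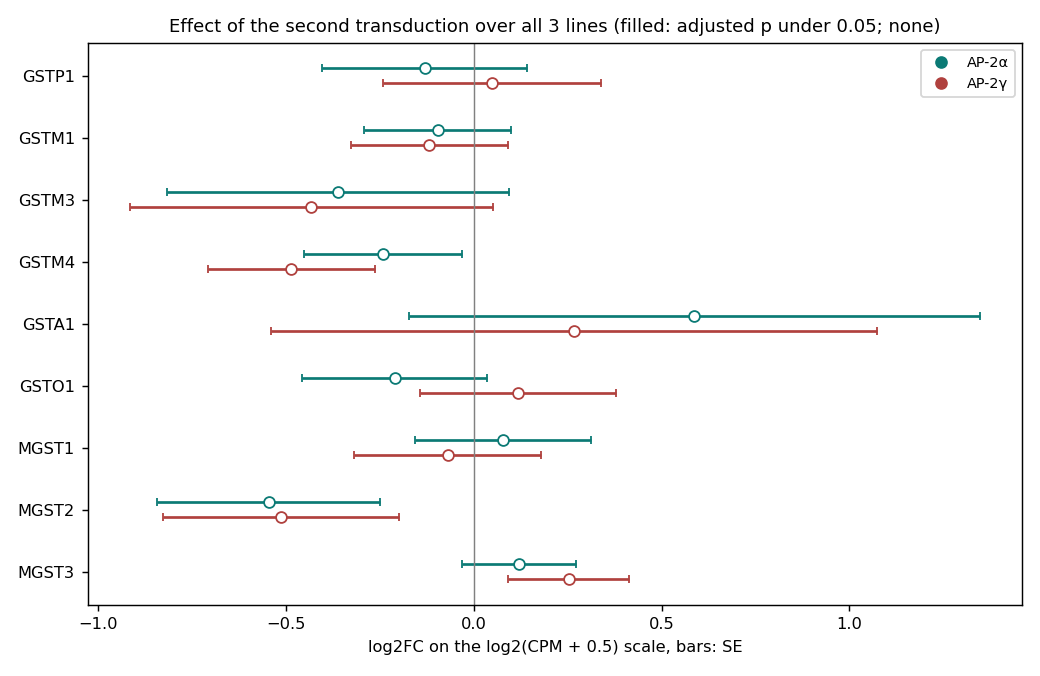
Effect of AP-2α and AP-2γ over all lines on the 9 members, as log2FC with its SE. All points are open, since no adjusted p was under 0.05, and MGST2 lies near -0.5 for both factors.

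For the 5 variants against KK, fitted over the lines without a term for the line, 0 of 9 members and 0% of genes were called in each of WK, KA, KC, WA and WC. At an unadjusted p under 0.05 there were 0 members in each and 8 to 78 genes, edgeR called 0 genes, and DESeq2 called 4 for KC, 7 for WC and 0 for the others. The KC group lacks CAL-29 here, so its values for genes that differ by line, such as a log2FC of -2.06 for GSTM1, move with which lines are in the group.

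The library labelled CAL-29 KC had 0 reads on GSTM1 of 15773716, which allows up to 0.179 CPM, against 33.0 to 68.5 CPM in the other CAL-29 libraries. Its GSTP1 was 1363 CPM, or 0.133 times CAL-29 KK and inside the range of the HT-1376 K libraries (992 to 1704). Its GSTP1 share of the member sum was 51.2% (95% Wilson interval 50.8 to 51.7). MGST2, at 11.2 CPM, also lay inside the HT-1376 K range, while GSTM3 at 35.0 and MGST3 at 982 CPM did not. With the cell line as a block, the log2FC of KC minus KK for GSTP1 was -0.91 with this library and -0.10 without it, neither of them called.

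Other genes of glutathione chemistry were counted in 5 lists. None of their genes was called for WWOX or an AP-2 factor over all lines, or for W in RT-112 or CAL-29, except that TMM gave 1 efflux pump higher in W of CAL-29. Among 16 other glutathione transferases, 7 passed the filter, of which 5 differed between RT-112 and HT-1376 (2 higher, 3 lower), 5 between RT-112 and CAL-29 (2 higher, 3 lower) and 3 between HT-1376 and CAL-29 (all lower, and 1 with TMM). Over all genes 62.2%, 72.4% and 60.8% were called in these comparisons. GSTO2, the second omega gene, was lower in RT-112 than in HT-1376 (log2FC -3.23, adjusted p = 1.51e-09), GSTA4, which acts on 4-hydroxynonenal, was lower in HT-1376 than in CAL-29 (log2FC -2.64, adjusted p = 9.86e-06), and PTGES, a prostaglandin E synthase of the MGST family, was higher in RT-112 than in HT-1376 (log2FC 2.03, adjusted p = 6.63e-07). Within HT-1376, 1 of the 7 was called for W, against 8.59% of all genes. It was GSTK1, the kappa class enzyme, lower in W (log2FC -0.77, adjusted p = 0.0331), and TMM gave -0.63 (adjusted p = 0.0846). With TMM 1 gene of this list was called, a different one and higher in W.

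Of 16 genes of glutathione synthesis and recycling past the filter, 8 differed between HT-1376 and CAL-29, all lower in HT-1376 (7 with TMM, 1 higher and 6 lower), and 13 between RT-112 and CAL-29 (1 higher and 12 lower, or 4 and 7 with TMM), against 60.8% and 72.4% of all genes, most of them also lower. GCLC, the catalytic subunit of the first enzyme of glutathione synthesis, was lower in HT-1376 than in CAL-29 (log2FC -2.35, adjusted p = 2.41e-04), as was glutathione reductase, GSR (log2FC -2.10, adjusted p = 3.62e-08). SLC7A11, the cystine importer, was lower in RT-112 than in CAL-29 (log2FC -4.00, adjusted p = 4.29e-06). None of the 16 was called for W in any line.

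Of 14 peroxidases, glutaredoxins and glyoxalases, 4 were called for W in HT-1376 (3 higher and 1 lower), against 8.59% of all genes. GPX2, an epithelial glutathione peroxidase, was at a mean of 0.427 CPM in K and 5.38 in W of HT-1376 (log2FC 2.61, adjusted p = 9.33e-05), against 650 and 748 in RT-112. PRDX6, a peroxiredoxin that uses glutathione, was lower in W (log2FC -1.13, adjusted p = 0.0134) and GLRX3 was higher (log2FC 0.89, adjusted p = 0.0441). The effect of W differed between lines for GPX2 (adjusted p = 0.00604) and GPX1 (adjusted p = 0.0237). Among the efflux pumps, ABCG2, a drug exporter, was lower in W of HT-1376, at a mean of 79.4 CPM in K and 25.5 in W (log2FC -1.63, adjusted p = 0.0219). Of 11 regulators, none was called for W within a line, and the effect differed between lines for SQSTM1, which binds KEAP1 (adjusted p = 0.0345). Between lines, 6 of the 11 were called for RT-112 minus CAL-29 (1 higher, 5 lower), against 72.4% of all genes. For HT-1376 minus CAL-29, 8 were called (2 higher, 6 lower), against 60.8%. NFE2L2, the gene of NRF2, was lower in RT-112 than in CAL-29 (log2FC -1.86, adjusted p = 1.19e-04) and in HT-1376 than in CAL-29 (log2FC -1.44, adjusted p = 0.00153), and KEAP1, its inhibitor, was higher (log2FC 0.56 and 0.47, adjusted p = 3.81e-04 and 0.00215). AHR was also lower in both lines than in CAL-29 (log2FC -3.29 and -1.49, adjusted p = 2.70e-06 and 0.00400).

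The genes most like each member were found by Pearson's r of log2(CPM + 0.5) over the 17 libraries, as a description, since libraries of a line share that line. For GSTP1 they were POLD4 (r = 0.951) and FADD (r = 0.951), both on chromosome 11 like GSTP1. For GSTM1 they were HOXA9 and HOXA10 (r = 0.999 each), and 151 genes reached 0.95. BZW2 and MPP1 (r = 0.94 each) were most like GSTM3, and ZNF428 and GABRE (r = 0.94 each) most like MGST2. MGST3 was closest to RNASEK and the overlapping readthrough gene RNASEK-C17orf49 (r = 0.953 each), GSTO1 to PSMD2 (r = 0.919) and NDUFS3 (r = 0.892), and MGST1 to SEM1 (r = 0.926) and SP2 (r = 0.895). GSTM4 (RXRB, r = 0.801, and ADCY6, r = 0.758) and GSTA1 (BAG1, r = 0.687, and LOXL1, r = 0.675) had no close match.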

How the data were processed

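The table holds 1 value per gene and library, in CPM, from 18 CAGE-seq libraries. Per the paper's methods and the submitters' processing notes, the authors mapped 75 nt reads to hg38 with BWA and then HISAT2 2.0.5, grouped tags by Paraclu as modified for RECLU, and deposited CPM with 2 decimals. The rule that assigns tags to genes and the total behind the CPM are not given in the sources used here. Files of single libraries held the same values (18 of 18). Identifiers were joined without version to GENCODE 44 on GRCh38 (16553 of 16575 matched).

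Within 0.1 read, deposited CPM came out as whole reads (99.97% to 99.99% of values per library, with the step of RT-112 WC settled from all its values), which gave the reads used by the count tools. The 13022 genes that reached 5 CPM in any library were tested with limma 3.58.1 in R 4.3.3 on log2(CPM + 0.5) with trended variance and Benjamini-Hochberg adjustment, over 17 libraries. Models were cell line, WWOX and AP-2 terms together, WWOX within each line with an AP-2 term, and variant alone (for each variant against KK). Libraries of the same cell line pair the variants by design, and their deviations from the variant means correlated at 0.663 to 0.915. Pairs of libraries of a line were no duplicates (smallest chi-square per degree of freedom 19.4). Fits were tested on simulated data.

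Other settings tried were no filter, 5 CPM in 3 libraries, pseudocounts of 0.05 and 2 CPM, TMM, limma-voom, edgeR 4.0.16 and DESeq2 1.42.0 on the recovered reads, all 18 libraries, models without some terms, the line as a block, and each library or line left out. All 10 members and the targeted genes are named, with up to 2 called genes of largest positive and 2 of largest negative log2FC per list and comparison, of which some are described, and the 2 genes most like each member. Members and lists were chosen with earlier results of these data known. A single efflux list result is not reported here.

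Plots were drawn with matplotlib 3.10.9. Other values came from Python 3.11.15 (SciPy 1.17.1, pandas 2.3.3, NumPy 2.4.6).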

Additional observations from a re-analysis of the deposited data

Results flagged for a closer look

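The W minus K difference of GSTM3 and of MGST2 varied between the 3 cell lines by the test of the difference itself (adjusted p = 0.00454 and 0.0117, limma). With the library labelled CAL-29 KC in the fit, both had an adjusted p of 0.0527 and neither was called. GSTM3 was lower in W than in K libraries of HT-1376 in 3 of 3 libraries, and MGST2 was higher in W in HT-1376 and CAL-29 and lower in the mean in RT-112.

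Within a line, 5 of 27 sets of libraries held 1 library far from the others by Dixon's test. Each set mixes different variants, and a set with 1 value above 0 and the rest at 0 is flagged whatever the value. The number of flags therefore cannot be set against a rate by chance. GSTA1 was 10.2 CPM in CAL-29 WK, the highest of 5 libraries. GSTM3 was 4.03 CPM in RT-112 WK, the highest of 6, and MGST3 was 1824 CPM in HT-1376 WC, the highest of 6. GSTM1 was 0.06 CPM in RT-112 WA and 0.07 CPM in HT-1376 KC, in both a single read beside 5 libraries at 0.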

How the results depend on the processing

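Over all alternatives, the members' fold changes that were repeated kept direction and call in 701 cases, lost a call in 54 and reversed in 7. Counts of members called stayed within 1.5 times in 423 cases and moved in 8. With the library labelled CAL-29 KC, member calls went from 2 to 0 for the interaction and from 3 to 1 for WWOX in HT-1376, and the log2FC of GSTP1 in CAL-29 turned to 0.22. For WWOX in CAL-29 the 1 member was lost, giving 0, with TMM, with edgeR and without an AP-2 term, and the range without 1 library was 0 to 1. MGST1 in RT-112 minus CAL-29 turned to 0.20 with DESeq2, 0.10 with TMM, 0.10 with edgeR and 0.065 with voom. Without RT-112 KK the log2FC of GSTM3 in RT-112 was -0.040 (range without 1 library -0.040 to 0.40), and without HT-1376 that of GSTP1 over all lines was -0.27 (range -0.27 to 0.53). The causes were not tested.

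Counts of all genes moved more. For the interaction, 393 became 1162 with DESeq2, 661 with no filter, 0 with CAL-29 KC and 102 (without HT-1376 WK) to 979 (without CAL-29 WA) without 1 library, beyond 1.5 times for 13 libraries. For WWOX in HT-1376, 1118 became 1887 with DESeq2, 241 with CAL-29 KC and 298 (without HT-1376 WK) to 1764 (without CAL-29 KK). For WWOX in CAL-29, 77 became 297 with DESeq2, 24 with edgeR, 140 without an AP-2 term, 146 with no filter, 39 with a pseudocount of 0.05 and 24 (without CAL-29 KK) to 686 (without CAL-29 WA). For WWOX in RT-112, 0 became 25 with DESeq2, 2 with TMM, 1 without an AP-2 term, 2 with no filter, 3 and 1 with pseudocounts of 0.05 and 2, and 0 to 15 (without RT-112 WK). For WWOX over all lines, 0 became 225 with DESeq2, 16 with edgeR, 70 with voom, 2 with a pseudocount of 0.05 and 0 to 6 (without CAL-29). AP-2α gave 1 gene with DESeq2 and 1 with edgeR, AP-2γ 12 and 2, KC minus KK 4 and WC minus KK 7 with DESeq2. With the cell line as a replicate block, 0 members and 0 genes were called in each of the 5 variants, and the block changed no other call. Including CAL-29 KC in that block fit, chosen after seeing the data, also gave 0.

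With 2 K libraries of CAL-29 in the fits, W minus K in that line rests on the least data, and low counts limit GSTA1 in all lines and GSTM1 in RT-112 and HT-1376.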

Other observations

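The genes around GSTP1 were described after the data were seen, because POLD4 and FADD on the same chromosome followed it most closely. POLD4 lies within 0.5 megabases of GSTP1 and is counted below, while FADD lies beyond 2 megabases. Of the 27 other genes past the filter within 0.5 megabases on each side, 25 had a higher mean log2(CPM + 0.5) in CAL-29 than in HT-1376 and 24 a higher mean than in RT-112, with median differences of 1.65 and 1.40. Over all 13022 genes the shares were 66.6% and 72.3% and the medians 0.45 and 0.83. Within 1 megabase, 39 and 37 of 43 genes were higher in CAL-29 (medians 1.49 and 1.18). Within 2 megabases, 75 and 65 of 90 genes were higher (medians 0.77 and 0.61). Against RT-112 neither that share (72.2%) nor that median exceeded the value over all genes. Within 5 megabases, 128 and 125 of 200 genes were higher (medians 0.25 and 0.18), both below the values over all genes. Neighbouring genes are not independent, and no test was made.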
